A study of Mus musculus with 3 samples.

Results

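The 10 melanin synthesis genes Tyr, Tyrp1, Dct, Pmel, Mlana, Oca2, Slc45a2, Slc24a5, Gpr143 and Mitf were followed through 3 droplet single-cell RNA libraries of the mouse iridocorneal angle and limbus. They were chosen by name, as 10 of the 31053 genes in each count matrix, and all 10 had unique molecular identifiers (UMIs, 1 for each captured RNA molecule) in every library. Both control libraries came from Angpt1 flox/flox mice, which carry the conditional allele without Cre. The remaining library came from Angpt1ΔNC mice (Angpt1 flox/flox;Wnt1Cre+), in which Cre driven by Wnt1 removes Angpt1 from neural crest derived cells. All mice were 6 weeks old and of mixed strain, bred for 2 generations toward ICR so that albino litters could be used. Each library pooled 4 to 6 eyes of 2 to 3 mice, with lens, retina and most of the iris dissected away, so a library counted as 1 replicate and Angpt1ΔNC had no replicate of its own. An albino eye makes no melanin, so the RNA of these genes was measured in tissue without the pigment.

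Melanin is made in melanosomes, organelles of pigment cells. Tyrosinase (Tyr) carries out the rate-limiting oxidation of tyrosine, and its relatives Tyrp1 and Dct act on later intermediates. Pmel forms the fibrils on which the pigment is laid down, and Mlana helps Pmel mature. Oca2, Slc45a2 and Slc24a5 are membrane transporters that set the ion balance and pH in which tyrosinase works. Gpr143 is a receptor of the melanosome membrane that controls melanosome size and number, and Mitf is the transcription factor that switches on much of the set. The eye has pigment cells of 2 origins. Melanocytes of the iris, ciliary body and limbal stroma come from the neural crest, whereas the retinal pigment epithelium and the pigmented epithelia of ciliary body and iris come from the optic cup.

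The authors' cluster label of each kept cell was used, and 4 of the 35 labels held the pigment cells. The study named label 1 retinal pigment epithelium, label 7 ciliary epithelia and labels 8 and 9 melanocytes. Control replicate 1, control replicate 2 and Angpt1ΔNC (values are given in this order throughout) held 9076, 10160 and 6772 kept cells, with medians of 6329.5, 6393.5 and 7444 UMIs per cell. Label 8 held 839, 767 and 442 of these cells and label 9 held 711, 799 and 292. Label 7 was smaller, with 316, 107 and 139 cells, and label 1 the smallest of the 4, with 133, 81 and 17. Between 13 and 25 cell barcodes were shared by a pair of libraries. Angpt1, the targeted gene, stood at 37.8 and 39.3 CPM (UMIs per 1000000 UMIs of the library's kept cells) in the controls and at 0.391 in Angpt1ΔNC. In label 8 the controls had 22 and 17 Angpt1 UMIs and Angpt1ΔNC had 0. In label 9 the controls had 1 and 3 and Angpt1ΔNC had 0, counts too low to show a loss. The 17 Angpt1ΔNC cells of label 1 had 7, where the controls had 5 and 2.

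The sequence before the transcription start is shown first, because Mitf binds a 6-letter E-box, CATGTG, which reads CACATG on the other strand. RefSeq windows of the GRCm38.p6 build were given for 6 of the 10 genes, and the 250 bases before each start were searched on both strands. Pmel, Mlana, Slc45a2 and Gpr143 had no window. The windows of the 3 enzyme genes were lined up on the E-box, and the run of letters that they share around it was GTCATGTGCT, the form known from pigment gene promoters as the M-box. The E-box lies inside the M-box, so a gene with the longer motif also counts for the shorter. The lines below give each E-box or M-box in capitals with up to 10 bases on either side, 5′ to 3′ on the strand of the gene, and are shown because the enzyme genes share the longer motif.
Tyr, chr7:87493516-87493545 (minus): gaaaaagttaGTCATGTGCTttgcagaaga
Tyrp1, chr4:80834155-80834184 (plus): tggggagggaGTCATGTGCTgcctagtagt
Dct, chr14:118052379-118052408 (minus): tgcacttaggGTCATGTGCTaacaaagagg
Dct, chr14:118052463-118052488 (minus): ttggctgggaCACATGagcccaataa
Oca2, chr7:56239563-56239588 (plus): gagcttgctaCACATGgctggaattt
Slc24a5, chr2:125068104-125068126 (plus): ggagactgctCACATGattcagc

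The M-box stood in 3 of the 6 genes, the enzymes Tyr, Tyrp1 and Dct from which it was read, and in none of the other 3. Over all genes with a window it stood in 39 of 27025 (0.144%). The E-box stood in 5 of the 6, against 13.8% of all genes, and the palindromic form CACGTG in 0 of the 6, against 6.86%. The E-box began 21 bases before the start of Tyr, 46 before Tyrp1, 13 before Slc24a5 and 186 before Oca2. Dct had a pair of them, beginning 150 and 232 bases before its start. These distances count from RefSeq starts. GENCODE, used for the gene positions below, starts Tyrp1 earlier, at chr4:80834123, which puts its E-box (80834167 to 80834172) inside the gene. None of the 3 Mitf windows held the E-box. A match says only that these letters are present. The whole windows of Tyr and Dct follow, since Tyr is the rate-limiting enzyme and Dct passed the test between genotypes in labels 1 and 9 below.
Tyr, chr7:87493513-87493762 (minus): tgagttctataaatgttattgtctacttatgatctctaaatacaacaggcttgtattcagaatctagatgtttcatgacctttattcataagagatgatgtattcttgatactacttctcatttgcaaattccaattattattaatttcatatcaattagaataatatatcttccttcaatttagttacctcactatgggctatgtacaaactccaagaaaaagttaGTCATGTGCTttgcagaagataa
Dct, chr14:118052247-118052496 (minus): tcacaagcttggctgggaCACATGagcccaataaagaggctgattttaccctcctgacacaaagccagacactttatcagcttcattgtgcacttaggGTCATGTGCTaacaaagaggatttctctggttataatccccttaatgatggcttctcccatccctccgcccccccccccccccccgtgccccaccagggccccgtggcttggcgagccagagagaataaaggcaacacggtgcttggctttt

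The labels were checked against marker genes, with levels as the mean over cells of UMIs per 10,000 UMIs of the cell. Labels 8 and 9 had UMIs of all 6 neural crest melanocyte markers, which summed to 29.8, 27.9 and 30.8 in label 8 and to 26.0, 22.7 and 28.8 in label 9. In labels 7 and 1 the same sum was between 0.105 and 0.520. Most of the sum in labels 8 and 9 was Ednrb, the endothelin receptor of melanoblasts, at 27.5, 25.6 and 26.9 in label 8. Erbb3 was lower in labels 8 and 9 (0.0941 to 0.125) than in limbal (label 4, 0.128 to 0.226) and corneal epithelium (label 5, 0.291 to 0.486). Kit in label 9 (0.180, 0.204 and 0.129) was close to that in label 5 (0.201, 0.159 and 0.129). Against the melanocyte sum, the 8 optic cup transcription factors went the other way, with sums of 3.86, 3.74 and 2.86 in label 7 and 5.504, 4.37 and 7.73 in label 1. They summed to at most 0.0255 in labels 8 and 9. Label 1 carried the retinal pigment epithelium markers, with a sum of 1178, 1039 and 441.4 of which the transthyretin gene Ttr made 937.5, 835.6 and 374.6. Rpe65, the isomerase of the visual cycle, stood at 45.6, 43.4 and 6.97 there, while Best1 had 1 UMI. Label 7 had UMIs of all 9 ciliary epithelium markers, with a sum of 8.92, 7.05 and 9.26. Of this sum Gja1 made 4.11, 3.68 and 5.06, and it also stood at 1.915 to 2.475 in labels 4 and 5. Atp1b2 was higher in label 1 (0.855, 0.708 and 0.704) than in label 7 (0.773, 0.240 and 0.308). Label 7 carried the iris smooth muscle markers at a higher sum, 71.7, 58.8 and 35.9, most of it the smooth muscle actin Acta2. The name ciliary epithelia thus does not cover all of its RNA and it is called label 7 here. Glial markers summed to 17.3, 20.2 and 24.2 in label 8 and to 14.1, 16.6 and 24.3 in label 9, mainly S100b, which melanocytes also express.

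The enzyme genes had one order of labels from the highest: 8, 9, 7 and 1. Tyr (tyrosinase, chr7:87424771-87493512) had 6.70, 6.76 and 6.66 UMIs per 10,000 in label 8 and 4.21, 4.12 and 4.65 in label 9. It had 1.72, 1.10 and 2.12 in label 7 and 0.779, 0.727 and 1.81 in label 1. The 3 libraries of label 8 had a mean of 6.71 ± 0.0498 (SD, n = 3) for this gene, above every library of the other labels, while the ranges of labels 7 and 1 overlapped. Tyrp1 (chr4:80834123-80851719), the enzyme of eumelanin synthesis next to Tyr, had 69.1, 78.9 and 77.0 in label 8 and 35.7, 41.6 and 45.3 in label 9. It had 12.2, 9.34 and 14.6 in label 7 and 6.10, 4.49 and 5.74 in label 1, and no ranges overlapped. Dct (dopachrome tautomerase, chr14:118012790-118052244) had 146.8, 180.1 and 237.7 in label 8 and 111.5, 138.0 and 203.0 in label 9. Its ranges in labels 8 and 9 overlapped, because each library had its own height and the Angpt1ΔNC library was highest in both. Dct had 39.1, 40.5 and 56.4 in label 7 and 19.3, 21.3 and 40.9 in label 1.

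Pmel, the fibril protein, set labels 7 and 1 apart. It (chr10:128704195-128720238) had 187.2, 198.8 and 175.1 in label 8 and 120.3, 120.9 and 117.1 in label 9. It had 70.4, 61.2 and 39.8 in label 7 but 8.97, 6.64 and 12.5 in label 1. Its level in label 7 was 7.85, 9.22 and 3.19 times that in label 1, with no overlap of the libraries. Mlana (chr19:29697824-29708634) had 51.2, 52.7 and 67.9 in label 8 and 30.97, 35.3 and 42.4 in label 9. It had 18.5, 17.8 and 18.3 in label 7 and 4.86, 4.27 and 5.09 in label 1. Exons of Pmel share 34 bases with Cdk2 and 105 with Dgka on the opposite strand, and the strand setting of the counting was not given in the sources used here. Dgka stood at 0.0179 to 0.0344 in label 8. Cdk2 stood at 2.52, 2.96 and 3.27 in label 8 and at 2.23, 2.61 and 3.53 in label 9. In labels 7 and 1 Cdk2 ran from 0.0536 to 0.195. The part of this overlap in the counts was not tested.

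Of the transporters, Slc45a2 had the steepest drop outside labels 8 and 9. It (chr15:11000721-11029233) had 10.1, 9.40 and 6.64 in label 8 and 5.20, 4.82 and 4.17 in label 9. In labels 7 and 1 its level was between 0.229 and 0.618, and label 8 stood 35.4, 40 and 18 times above label 7. Oca2 (chr7:56239760-56536518), the P protein of the melanosome membrane, had 4.94, 5.59 and 5.02 in label 8 and 2.43, 2.63 and 2.49 in label 9. Label 1 followed with 1.28, 1.24 and 1.15, and label 7 was lowest with 0.538, 0.482 and 0.757. Slc24a5 (chr2:125068124-125088677), a potassium-dependent sodium and calcium exchanger, had 28.7, 28.0 and 32.0 in label 8 and 22.1, 21.5 and 25.7 in label 9. Its levels in labels 7 (3.87, 3.64 and 4.38) and 1 (4.12, 5.34 and 5.82) overlapped. Exons of Slc24a5 share 921 bases with Myef2 on the opposite strand, and Myef2 stood at 0.123 to 0.149 in label 8.

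The receptor gene Gpr143 (chrX:152781921-152808646) had 3.05, 3.09 and 3.02 in label 8 and 1.62, 1.63 and 1.98 in label 9. Like Oca2, it stood higher in label 1 (1.05, 0.921 and 0.482) than in label 7 (0.198, 0.126 and 0.378) without overlap. The factor Mitf (chr6:97807052-98021349) did not follow the order of the others. It was highest in label 7, at 1.91, 1.43 and 1.33, and had 1.61, 1.36 and 0.958 in label 8, 1.06, 0.799 and 0.577 in label 9 and 0.931, 0.531 and 0.549 in label 1. Label 7 stood above label 8 in each library, but their ranges overlapped, as did those of labels 8 and 9 and of labels 9 and 1. The means over libraries were 1.55 ± 0.309 (SD, n = 3) in label 7, 1.31 ± 0.327 in label 8, 0.812 ± 0.242 in label 9 and 0.671 ± 0.226 in label 1.

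**Figure D1:**
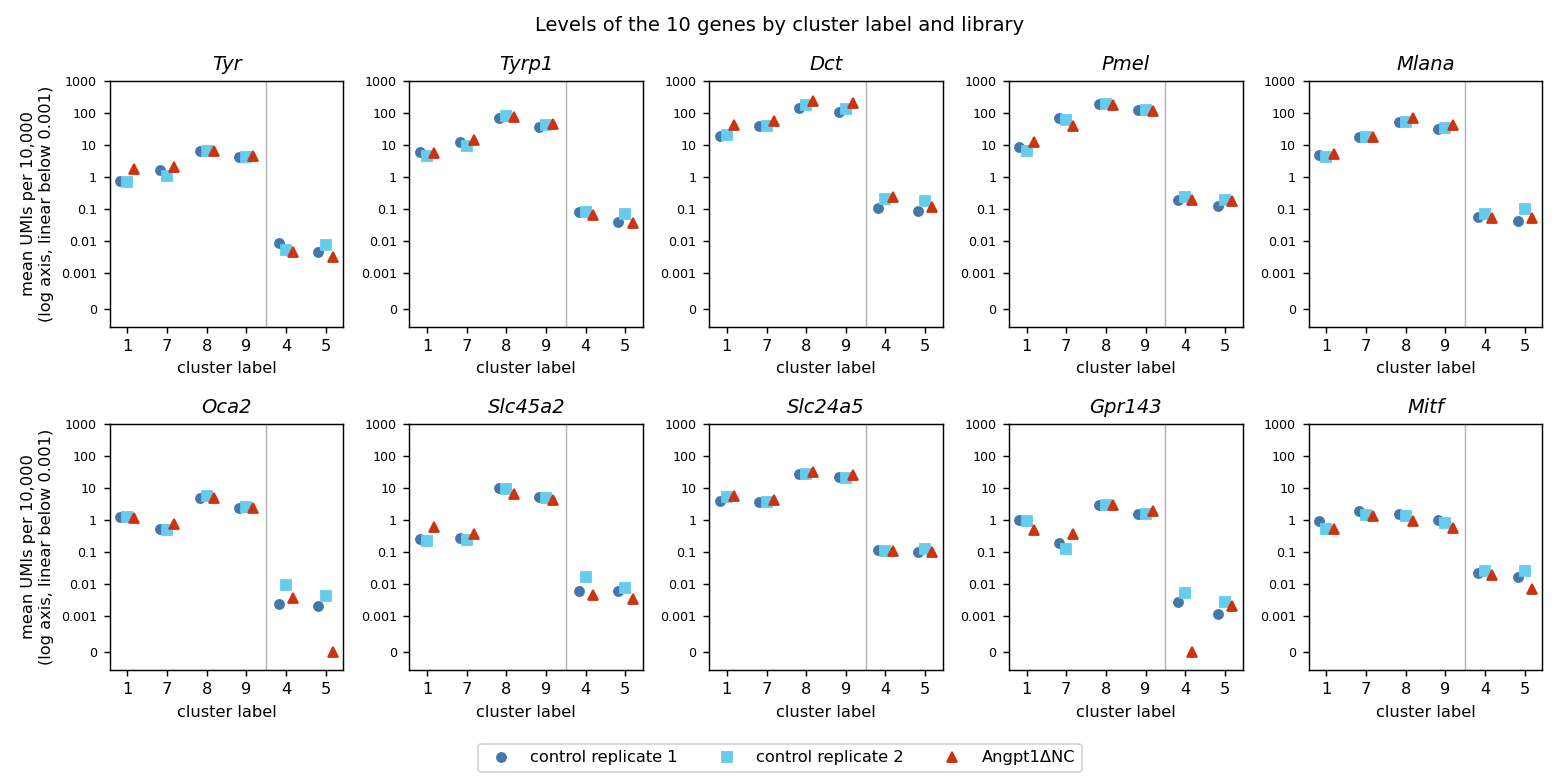
Mean UMIs per 10,000 of a cell (log axis, linear below 0.001) for the 10 genes in pigment cell labels 1, 7, 8 and 9 and, right of the grey line, in labels 4 and 5 (limbal and corneal epithelium); each point is 1 library. In 9 of the 10 panels label 8 is highest, Mitf is highest in label 7, and labels 4 and 5 lie well under the 4 pigment cell labels.

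Labels 8 and 9 were set side by side library by library. All 10 genes stood higher in label 8 in each of the 3 libraries. Of the 10, 8 did so without overlap of pooled levels, where 14.7% of the 10411 genes compared did, and the exceptions were Dct and Mitf. The ratio of label 8 to label 9 was smallest for Slc24a5 and Dct, at 1.30, 1.30 and 1.25 and at 1.32, 1.31 and 1.17. It was largest for Oca2, at 2.03, 2.12 and 2.02, followed by Tyrp1 at 1.94, 1.90 and 1.70 and Slc45a2 at 1.94, 1.95 and 1.59, whose order differed between libraries. The ratio of Mitf was 1.52, 1.70 and 1.66. Label 8 stood above label 7 without overlap for 9 genes (background 35.7% of 10738 genes), and label 9 above label 7 for the same 9 (34.8% of 9754), with Mitf the exception in both. Label 7 stood above label 1 for 6 genes (27.5% of 8680), Tyr, Tyrp1, Dct, Pmel, Mlana and Mitf, when counts were pooled over cells, whereas the means over cells of Tyr and Dct overlapped. Pooled counts also put Mitf of label 7 above label 8 without overlap, which the means over cells did not. Since the labels come from clustering these same cells, no test was made between them.

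Outside the 4 labels the members were nearly silent. Labels 1, 7, 8 and 9 held 99.15, 98.76 and 98.78% of the UMIs of the 10 genes, and label 8 alone held 69.4, 67.9 and 70.9%. For 8 members the share was between 98.71 and 99.54% in each library, and for Slc24a5 it was 97.60, 96.59 and 96.57%. Mitf was the exception, with 86.10, 76.52 and 77.56% of its 2993, 2040 and 1154 UMIs in the 4 labels. Its highest label outside them was 19, named smooth muscle by the study, at 0.238, 0.240 and 0.343 UMIs per 10,000. Label 24, one of the monocyte labels, followed with 0.258, 0.202 and 0.278. Each of these values lay above the Mitf levels of the epithelial labels 4 and 5, which ran from 0.00717 to 0.0264. For the other members the highest mean level in any of the other 31 labels ran from 0.0572 (Slc45a2, label 2) to 1.41 (Pmel, label 2), and the latter rested on control replicate 2, with 0.121, 3.89 and 0.219.

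**Figure D2:**
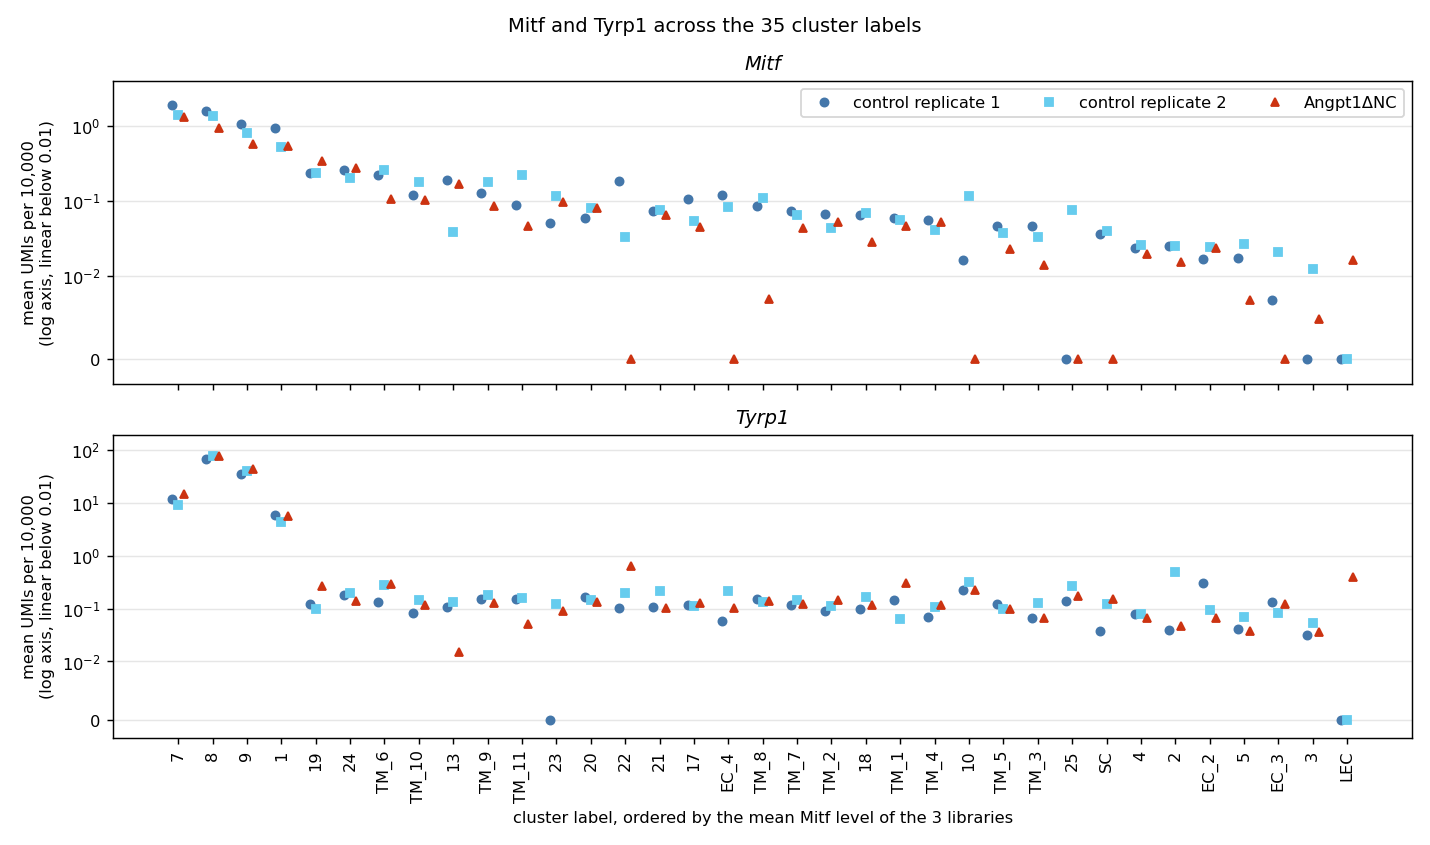
Mean UMIs per 10,000 (log axis, linear below 0.01) of Mitf and Tyrp1 in each of the 35 labels, ordered by the mean Mitf level, with 1 point per library. Tyrp1 is high in labels 7, 8, 9 and 1 and low elsewhere, whereas Mitf declines more gradually and reaches 0.238 to 0.343 in label 19.

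The share of cells with a UMI was compared after each cell was thinned to 2000 UMIs, since median depth ran from 5427 to 18150 UMIs across these labels and libraries. Labels 4 and 5, surface epithelium with medians of 12359 to 21528 UMIs, served as the background, which is one of deep cells. Mitf was found in 31.3, 20.5 and 24% of cells in label 7 after thinning, with exact binomial 95% intervals of 25.7 to 37.3, 12.4 to 30.8 and 16.7 to 32.6. The unthinned shares were 56.0, 43.0 and 52.5%. In label 8 thinned Mitf shares were 25.3, 22.9 and 15.4% (unthinned 67.1, 59.3 and 52.5%) and in label 9 they were 15.5, 11.5 and 9.06% (unthinned 34.6, 29.3 and 26.7%). The background was 0 to 0.698%, and the 0 of 269 cells in label 5 of Angpt1ΔNC allows up to 1.12%. Mitf thus stood above labels 4 and 5 in all 4 labels, including label 1 with 16.2, 13.4 and 17.6%, where the interval of the 17 Angpt1ΔNC cells was 3.80 to 43.4. Outside the 4 labels, thinned Mitf reached 5.47, 3.82 and 7.69% in label 19 and 4.23, 4.29 and 5.30% in label 24. The intervals given here cover counting error only. Tyr was found in 70.6, 74.6 and 74.4% of thinned cells of label 8 (unthinned 99.3, 98.7 and 99.8%) and 52.2, 51.0 and 57.6% of label 9, against at most 0.398% in labels 4 and 5. Dct was found in 99.9 to 100% of thinned cells of labels 8 and 9 and in 80.2, 73.5 and 81.8% of label 7. Label 1 had 87.2, 89.6 and 100%, above label 7 in each library, unlike the order of the Dct levels. The Dct background was higher, at 1.72 to 3.78% thinned and 12.8 to 28.3% unthinned, so a Dct UMI in a single cell of another label did not mark a pigment cell. Slc45a2 was the sharpest divide among the transporters, with 83.2, 80.7 and 74.0% of thinned cells in label 8 and 6.49, 3.61 and 7.44% in label 7.

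Summed over the 10 genes, the median cell of label 8 had 505.8, 558.0 and 603.0 UMIs per 10,000. The median cell of label 9 had 332.5, 370.1 and 453.0, that of label 7 had 150.9, 96.6 and 155.6 and that of label 1 had 36.3, 34.4 and 64.1. Averaged over the cells of label 8, the 10 genes made up 5.09, 5.65 and 6.12% of the UMIs of a cell. In labels 4 and 5 the median was 0.353 to 0.613, and outside the 4 labels 1, 1 and 4 cells passed 100. Thinned to 2000 UMIs, the median cell showed 8 of the 10 genes in label 8 and 7 in label 9 in every library. It showed 5, 4 and 5 in label 7 and 4, 3 and 5 in label 1. The spread within a label differed: from the 5th to the 95th percentile, label 8 of control replicate 1 ran from 357.5 to 673.8 and label 9 from 113.7 to 554.5. Label 7 began at 0 and reached 319.1, so it held cells with and without the pigment program.

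**Figure D3:**
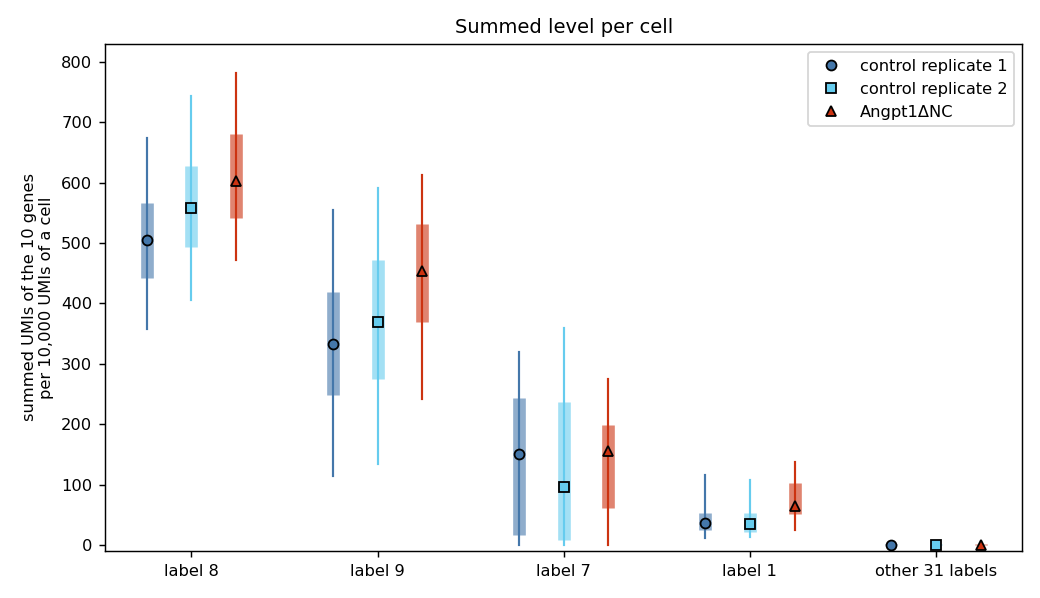
Summed UMIs of the 10 genes per 10,000 UMIs of a cell, by label and library. Points are medians over cells, thick bars run from the 25th to the 75th percentile and thin lines from the 5th to the 95th; label 8 is highest, label 7 reaches from 0 to the range of label 9, and the other 31 labels have a median of 0.

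Label 7 was therefore described by the summed level of the cell, which uses the members themselves and is no test. Cells under 10 per 10,000 numbered 65, 29 and 25, or 20.6, 27.1 and 18% of the label. Cells over 50 numbered 222, 66 and 106, and 29, 12 and 8 cells lay between. In the cells over 50, Pmel stood at 100.0, 97.7 and 52.1, Dct at 54.8, 63.9 and 72.7 and Mitf at 2.50, 2.27 and 1.63. The same cells carried Acta2 at 89.1, 76.6 and 37.8, against 4.10, 8.72 and 10.6 in the cells under 10. They also carried Myh11, the smooth muscle myosin, at 6.88, 5.67 and 3.52, and Gpnmb, a melanosome glycoprotein, at 18.1, 18.5 and 17.4. The cells under 10 were shallower, with medians of 3031, 3857 and 6985 UMIs against 9204, 8145 and 10600. Ciliary epithelium markers did not all go the same way between them. Col9a1, a collagen of the non-pigmented layer, stood at 2.56, 1.92 and 1.30 there and at 0.0280 to 0.103 in the cells over 50, and the water channel gene Aqp4 at 1.21, 0.587 and 0.661 against at most 0.0129. The connexin gene Gja1 was lower in the cells under 10, at 1.78, 1.16 and 2.09 against 4.51, 4.52 and 6.05, and Zic1 was lower there in Angpt1ΔNC but higher in the controls.

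The makeup of the program also differed between labels. In label 8, Pmel made 36.5, 35.2 and 28.6% of the UMIs of the 10 genes and Dct 28.8, 31.8 and 38.5%. In label 1, Dct made 44.9, 47.8 and 59.8%. In label 7, Pmel made 48.1, 45.8 and 28.4% and Dct 25.8, 29.4 and 39.8%, so the largest share passed from Pmel in the controls to Dct in Angpt1ΔNC in both labels 7 and 8. These shares of UMIs are read only between labels and libraries, not as levels of one gene against another.

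The genes with the pattern most like each member were found by Pearson's r of log2 of pooled CPM plus 10 over 103 pairs of label and library, among 23041 genes, as a description. Points share libraries, depth and clustering. Tyr, Tyrp1, Dct, Pmel, Mlana, Oca2 and Slc24a5 each had other members as their 3 nearest genes, at r of 0.962 to 0.982, led by Tyrp1 with Pmel (0.982). Gpr143 had Oca2 (0.980), Dcdc2a (0.959) and Tyr (0.955). Slc45a2 had no member among its nearest, but Gucy2f (0.969), a retinal guanylate cyclase gene, the ubiquitin ligase gene Trim63 (0.962) and Mlph (0.954), which links melanosomes to their motor. Gucy2f stood at 0.370, 0.383 and 0.380 in label 8 and at 0.00976 to 0.0406 in label 7. Mitf was furthest from the rest, with r of 0.732 to 0.844 to the other members. Its nearest genes were the prostaglandin synthase gene Ptgds (0.868), the channel gene Trpm1 (0.862) and Hsf4 (0.861). Ptgds was highest in label 1, at 685.7, 664.5 and 427.6, and had 248.7, 284.2 and 141.5 in label 8.

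The genotypes were compared within each label on counts summed over its cells, with edgeR's quasi-likelihood test over all genes and Benjamini-Hochberg adjustment. With 2 control libraries and 1 Angpt1ΔNC library there was 1 residual degree of freedom, the lone library was taken to vary like the controls, and nothing that came with that library can be told apart from the genotype. In label 8, 2 of the 10 genes passed an adjusted p of 0.05, Mitf and Slc45a2, both lower, where 8.74% of 11434 genes passed. In label 9, 2 passed, Mitf lower and Dct higher (12.2% of 10424 genes). In label 1, 2 passed, Tyr and Dct, both higher (11.1% of 8139 genes), on 17 Angpt1ΔNC cells. By DESeq2 1 passed in label 8 (Slc45a2), 1 in label 9 (Dct) and 0 in label 1. In label 7, 0 of 10 passed (0.788% of 9766 genes), by edgeR and by DESeq2, and 3, Pmel, Oca2 and Gpr143, had an unadjusted p under 0.05 by edgeR. Over all kept cells together 0 of 10 passed (0.00576% of 17352 genes) by edgeR and 1, Slc45a2, by DESeq2, and 3, Slc45a2, Pmel and Oca2, had an unadjusted p under 0.05 by edgeR. In that sum fewer cells of a type and less RNA per cell cannot be told apart. The median log2 difference of the 10 genes was 0.05 in label 8, 0.21 in label 9, 0.31 in label 7 and -0.06 in label 1, beside -0.01, -0.01, -0.02 and -0.01 over all genes tested.

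**Figure D4:**
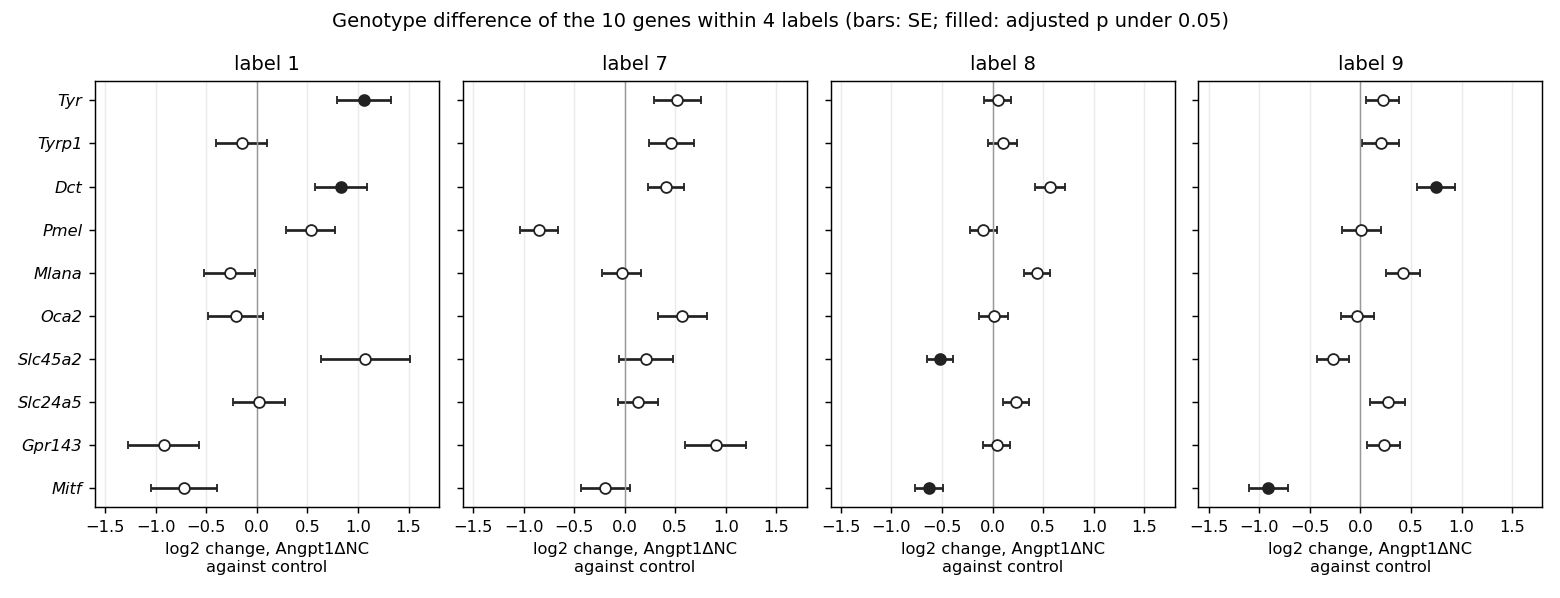
Log2 difference of Angpt1ΔNC against control for the 10 genes in labels 1, 7, 8 and 9 (edgeR, bars are ± SE, filled points have an adjusted p under 0.05). Mitf lies under 0 in all 4 labels and is filled in labels 8 and 9, Dct lies above 0 in all 4 and is filled in labels 1 and 9, and the point of Pmel in label 7 is open at -0.85.

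Mitf passed the edgeR test in both melanocyte labels, lower in the Angpt1ΔNC library, and in neither by DESeq2 (adjusted p = 0.10 and 0.21). In label 8 it fell by 0.63 ± 0.14 (SE) on the log2 scale, to 0.648 of control (edgeR adjusted p = 0.028), with 1.61 and 1.36 UMIs per 10,000 in the controls and 0.958 in Angpt1ΔNC. In label 9 it fell by 0.91 ± 0.19, to 0.533 of control (adjusted p = 9.7e-05), from 1.06 and 0.799 to 0.577. Its difference was -0.72 ± 0.33 in label 1 and -0.19 ± 0.24 in label 7, and neither passed the test (adjusted p = 0.16 and 0.79). The difference in label 9 was not shown to be another than that in label 7 by edgeR's interaction test, at -0.76 ± 0.20 (adjusted p = 0.074), nor that in label 8, at -0.48 ± 0.17 (adjusted p = 0.20).

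The libraries also differed in the sex of their cells, which touches this result. Protocol text says that males and females were pooled, but Xist, the RNA of the inactive X chromosome, had 3 and 2 UMIs in the controls and 43346 in Angpt1ΔNC. Cells with a UMI of the Y-linked genes Ddx3y, Eif2s3y, Kdm5d or Uty and no Xist (male-typed cells) made 69.7, 72.1 and 29.4% of the kept cells. In label 8, Mitf stood at 1.64 and 1.34 UMIs per 10,000 in male-typed control cells and at 1.41 in the 134 male-typed Angpt1ΔNC cells, but at 0.704 in its 277 cells with Xist and no Y-linked UMI. In label 9 male-typed cells had 0.889, 0.740 and 0.910 and the 207 Xist cells 0.446. By these means over cells, the male-typed Angpt1ΔNC cells lay among the controls in label 8 and above them in label 9, while the Xist cells lay below both. Over male-typed cells alone the edgeR difference of Mitf was -0.06 ± 0.16 in label 8 (adjusted p = 0.88) and -0.46 ± 0.30 in label 9 (adjusted p = 0.58). That fit sums counts, and in label 9, with 44 male-typed Angpt1ΔNC cells, its sign was opposite to that of the means over cells. With the Xist-positive Angpt1ΔNC cells against the controls it was -1.09 ± 0.16 (adjusted p = 0.0031) and -1.05 ± 0.21 (adjusted p = 1.9e-05). No control library held female cells in number, so sex and mouse of origin cannot be told apart from each other here.

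**Figure D5:**
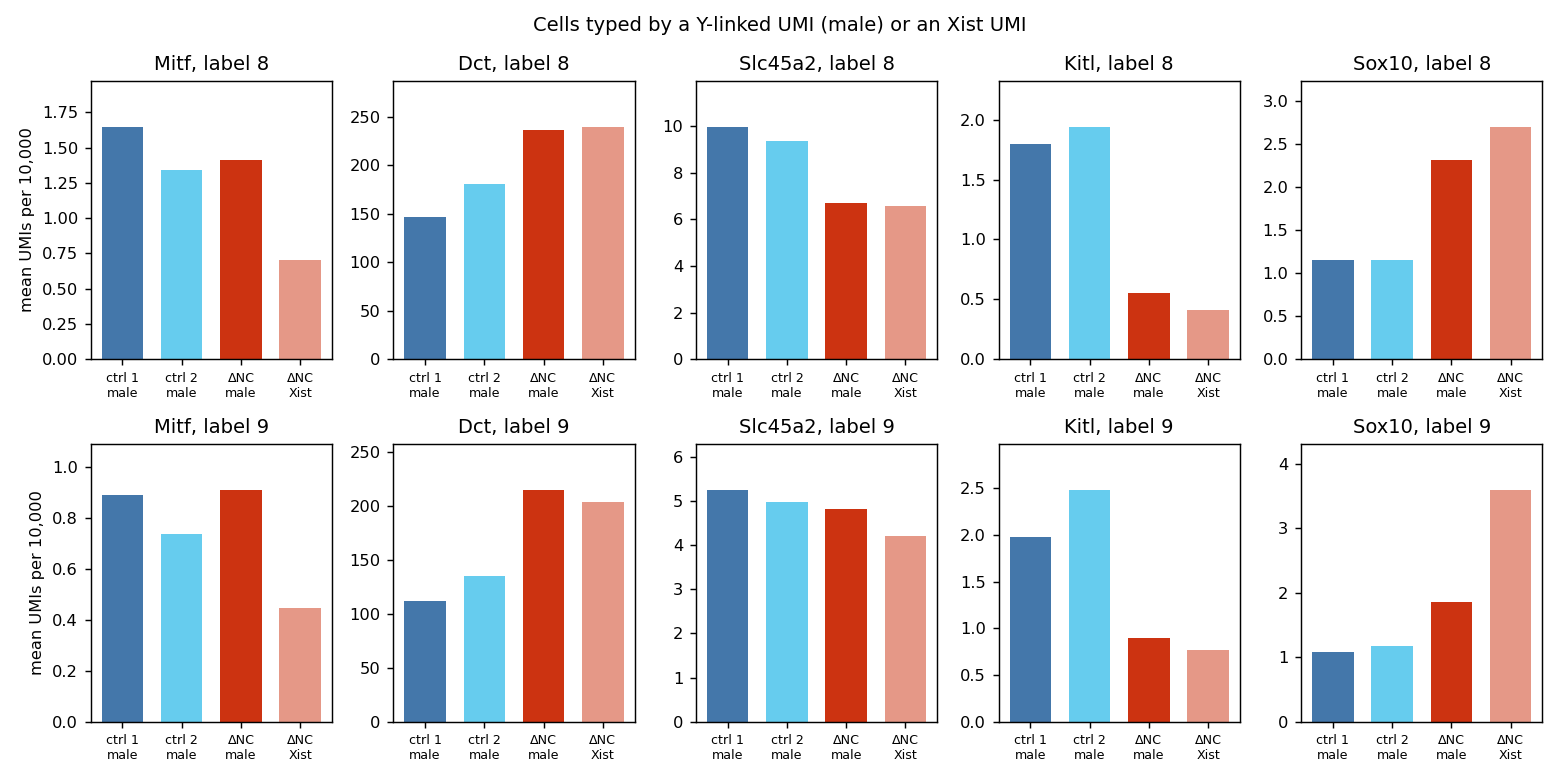
Mean UMIs per 10,000 of Mitf, Dct, Slc45a2, Kitl and Sox10 in labels 8 (top) and 9 (bottom), for male-typed cells of both controls and of Angpt1ΔNC (ΔNC) and for Xist cells of Angpt1ΔNC. Mitf of male-typed Angpt1ΔNC cells stands at 1.41 and 0.910, beside the controls, and that of Xist cells at 0.704 and 0.446, whereas Dct, Kitl and Sox10 of both Angpt1ΔNC bars lie on 1 side of the controls.

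The Mitf level of a whole library also moved with the filter on cells. Called cells that failed the authors' filters held 4.30, 6.53 and 25.6% of the UMIs of the 10 genes, and cells with a summed level over 100 among them numbered 220, 292 and 652, of which 169, 237 and 631 were over the limit of 10% mitochondrial UMIs. In those failing cells Mitf had 121, 147 and 139.9 CPM. Over kept cells it had 38.9, 25.4 and 17.4, and over all called cells 42.8, 32.1 and 35.5. In the latter the Angpt1ΔNC library lay between the controls. These CPM cover every cell type of a set, and the 10 genes together had 32969, 51660 and 183463 UMIs in the failing cells. The number of pigment cells and the Mitf level per cell therefore cannot be told apart in them. Median mitochondrial shares of the kept cells were 3.98, 5.00 and 5.66% in label 8 and 3.495, 4.41 and 5.07% in label 9. The part of filter and mitochondrial share in the lower Mitf level was not tested.

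Dct passed the test in labels 9 and 1. It rose by 0.75 ± 0.19 in label 9, to 1.68 times control (edgeR adjusted p = 0.0015, DESeq2 adjusted p = 0.012), from 111.5 and 138.0 to 203.0 UMIs per 10,000. In label 1 it rose by 0.83 ± 0.26, from 19.3 and 21.3 to 40.9 (adjusted p = 0.025), a call lost by DESeq2 (adjusted p = 0.08). In label 8 it was 1.48 times control and just missed the threshold (0.57 ± 0.15, adjusted p = 0.051), and in label 7 the difference was 0.41 ± 0.18 (adjusted p = 0.39). Its level lay close in cells of either sex of the Angpt1ΔNC library, with 236.2 in male-typed and 238.8 in Xist cells of label 8 and 215.1 and 203.9 in label 9. Male-typed cells of the controls had 146.2 and 180.8 in label 8 and 111.8 and 135.4 in label 9. Over male-typed cells alone the differences were 0.52 in label 8 and 0.75 ± 0.19 in label 9, with adjusted p of 0.10 and 0.093. The controls themselves differed, and without control replicate 1 the log2 differences were 0.39 in label 8 and 0.57 in label 9.

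Slc45a2, the transporter that raises melanosome pH, fell by 0.52 ± 0.13 in label 8, to 0.699 of control (edgeR adjusted p = 0.040), from 10.1 and 9.40 to 6.64 UMIs per 10,000. In label 9 the difference was -0.27 ± 0.16 (adjusted p = 0.31). Male-typed cells of label 8 had 9.96, 9.37 and 6.70 and the Xist cells of Angpt1ΔNC 6.57, so the levels of male-typed and Xist cells lay close together, and the difference was -0.52 ± 0.14 in male-typed cells alone (edgeR adjusted p = 0.050). Over all kept cells Slc45a2 had 146, 120 and 68.5 CPM (-0.81 ± 0.15, adjusted p = 0.19 by edgeR), and over all called cells 131.7, 110.6 and 68.0. In label 1 its difference had the other sign but did not pass (1.07 ± 0.44, adjusted p = 0.10).

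Tyr rose in label 1 by 1.06 ± 0.27 on the log2 scale, to 2.09 times control (edgeR adjusted p = 0.0051), from 0.779 and 0.727 to 1.81 UMIs per 10,000, and did not pass by DESeq2 (adjusted p = 0.38). Of the 60 Tyr UMIs of the Angpt1ΔNC library in label 1, 17 lay in 1 cell, where no control cell of label 1 had more than 6. That label's 17 Angpt1ΔNC cells stood apart in other ways. Their retinal pigment epithelium markers summed to 441.4 against 1178 and 1039, all 7 of those tested were lower, and none of the cells was male-typed. The neural crest melanocyte markers summed to 0.520 against 0.255 and 0.160, but on few UMIs (4 of Sox10, 3 of Ednrb and 1 of Kit). Sox10 stood at 0.122 in these cells, between the controls (0.111 and 0.133). Tyr did not pass in labels 8 or 9, where its differences were within 0.23 of 0.

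Pmel was the only member whose genotype difference passed edgeR's test between labels, for label 8 against 7 and for label 9 against 7. In each of these comparisons 7 of the 10 members, Pmel among them, had an unadjusted p under 0.05. In label 7 it had 70.4 and 61.2 UMIs per 10,000 in the controls and 39.8 in Angpt1ΔNC, 0.554 of control (-0.85 ± 0.19, edgeR adjusted p = 0.10), while in label 8 it had 187.2, 198.8 and 175.1 and in label 9 120.3, 120.9 and 117.1. The signed log2 difference in label 8 minus that in label 7 was 0.72 ± 0.13 (interaction test, edgeR adjusted p = 0.011; 2.35% of 12487 genes passed). That in label 9 minus that in label 7 was 0.83 ± 0.13 (adjusted p = 0.0052; 2.11% of genes). Between labels 8 and 9, 0 members passed by edgeR (0.024% of genes) or DESeq2, and 0 had an unadjusted p under 0.05. Of the 4 smooth muscle markers in label 7, Acta2 (66.6, 54.9 and 32.5) and Myh11 (4.88, 3.60 and 2.97) were lower in Angpt1ΔNC, like Pmel. By means over cells, Des (0.0810, 0.231 and 0.260) and Cnn1 (0.0681, 0.0577 and 0.110) were highest there. These rest on few UMIs, 13, 13 and 18 of Des and 16, 6 and 21 of Cnn1. The markers summed to 71.7, 58.8 and 35.9 in label 7 and to 0.124 to 0.153 in label 8. Within the cells of label 7 over 50, Pmel stood at 100.0, 97.7 and 52.1 and Acta2 at 89.1, 76.6 and 37.8. The part of these cells in the Pmel difference was not tested.

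Mlana, Oca2, Slc24a5, Gpr143 and Tyrp1 did not pass in any label. Mlana came nearest in label 8, at 0.44 ± 0.13, 1.36 times control (edgeR adjusted p = 0.058), and had 0.42 ± 0.17 in label 9 (adjusted p = 0.10). Gpr143, which lies on the X chromosome, stood at 3.27 in male-typed and 2.89 in Xist cells of label 8 in Angpt1ΔNC and at 3.01 and 3.07 in male-typed control cells. In label 7 its difference was 0.90 ± 0.30 (adjusted p = 0.24) and in label 1 -0.92 ± 0.35 (adjusted p = 0.081).

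Of the 15 upstream signals and transcription factors, 11 could be tested in label 8, where 1 was higher and 1 lower in Angpt1ΔNC, and 11 in label 9, where 3 were higher and 1 lower (DESeq2 called 2 in each). Over all genes 8.74% passed in label 8 and 12.2% in label 9. Sox10, the neural crest factor that activates Mitf, rose by 1.21 ± 0.12 in label 8, from 1.14 and 1.14 to 2.55 UMIs per 10,000 (edgeR adjusted p = 4.1e-04), and by 1.61 ± 0.16 in label 9, from 1.01 and 1.14 to 3.21. Kitl, the ligand of the Kit receptor on melanocytes, fell by 1.89 ± 0.15 in label 8, from 1.83 and 1.95 to 0.465 (adjusted p = 8.0e-05), and by 1.41 ± 0.18 in label 9, from 2.01 and 2.29 to 0.846. Sox10 and Kitl kept these directions in male-typed cells of label 8, with 1.15, 1.15 and 2.31 for Sox10 and 1.8, 1.94 and 0.550 for Kitl. Label 9 also showed higher Mc1r, the melanocortin receptor, at 0.0523, 0.0764 and 0.174 (1.08 ± 0.38, adjusted p = 0.043), and higher Tfe3, a relative of Mitf (1.19 ± 0.31). In label 7, 0 of 9 tested passed by edgeR or DESeq2 (1, Kitl, at an unadjusted p under 0.05), and in label 1 1 of 3, Zeb2, at 0.317, 0.274 and 1.22. The list's median difference was 0.14 in label 8 and 0.17 in label 9.

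Of the 24 genes of melanosome biogenesis and transport, all 24 could be tested in labels 8 and 9, and 3 and 4 passed by edgeR, where DESeq2 called 1 in each. These counts are near the shares over all genes of 8.74% in label 8 and 12.2% in label 9. Gpnmb rose by 0.55 ± 0.13 in label 8, from 18.9 and 19.9 to 28.1 (edgeR adjusted p = 0.030), by 0.75 ± 0.17 in label 9, from 19.8 and 19.9 to 32.1 (adjusted p = 2.2e-04), and by 1.78 ± 0.24 in label 1, from 2.79 and 2.50 to 9.86. Ap3b1, a subunit of the adaptor that sorts cargo to melanosomes, rose in label 8 from 0.416 and 0.379 to 0.620, and Rab27a and Rab32, GTPases of melanosome traffic, rose in label 9, the former from 0.362 and 0.415 to 0.635. Bloc1s2, a subunit of the BLOC-1 sorting complex, was the one lower in both, by 0.70 ± 0.17 in label 8 and by 0.63 ± 0.23 in label 9. The summed level of the list was 90.02, 93.0 and 100.0 in label 8 and 90.3, 91.9 and 103.6 in label 9, values that overlapped between the labels. In label 7 it was 46.9, 45.5 and 55.4, with 0 of 19 tested past the threshold by edgeR or DESeq2 (1, Bloc1s6, at an unadjusted p under 0.05). The median difference was 0.06 in label 8 and 0.01 in label 9.

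Of 11 known targets of MITF outside the 10 members, 1 of 10 tested passed in label 8 and 4 of 9 in label 9, all higher in Angpt1ΔNC, the library with the lower Mitf level. By DESeq2 0 of them passed in either label. Over all genes 8.74% passed in label 8, near the count of this list, and 12.2% in label 9. Tbx2, a repressor of senescence genes, rose by 0.68 ± 0.14 in label 8, from 0.438 and 0.398 to 0.666 (edgeR adjusted p = 0.016), and also rose in label 9. The others in label 9 were the receptor Met, from 5.08 and 4.52 to 6.78, the kinase Cdk2, from 2.23 and 2.61 to 3.53, and Cited1, from 3.63 and 3.29 to 4.57. The exons of Cdk2 overlap those of Pmel on the opposite strand. The median difference of the list was 0.28 in label 8 and 0.45 in label 9, and 0.05 in label 7, where 0 of 10 passed by edgeR or DESeq2 (1, Trpm1, at an unadjusted p under 0.05). In label 1 1 of 8 passed, Trpm1, at 2.43, 3.57 and 7.24. Beside these, S100b of glia and melanocytes stood at 10.3, 13.3 and 20.6 in label 9 (0.84, adjusted p = 8.5e-06) and Ttr, the leading gene of label 1, at 0.438, 0.476 and 1.81 in label 8. The part of RNA from other cells in the differences of labels 8 and 9 was not tested.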

How the data were processed

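The authors deposited raw UMI counts per gene and called cell for each of the 3 libraries, and tables with the cluster label of each cell they kept, whose integrated expression values were not used here. Per the labels these came from Cell Ranger 2.1.1 on mm10 and Seurat 3.1.3, while the matrix headers carry version 3.0.2. The authors kept cells with at least 200 genes, at least 1000 UMIs and at most 10% mitochondrial UMIs, and removed doublets with scDblFinder, so no doublet caller was run.

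Counts of kept cells (76981606, 80346829 and 66484181 UMIs) were joined to the labels by barcode. A level is the average, over the cells of a label, of the gene's UMIs per 10,000 of the cell. Intervals are Clopper-Pearson at 95%, and a count of 0 was read as up to 3 counts. Counts summed by label and library were tested with edgeR 4.0.16 (R 4.3.3), and differences between labels with an interaction term and the library as a block (2 residual degrees of freedom, label 1 left out). p-values measure only the spread between these pools. The step was tested on simulated counts in which 200 genes differed, and recovered 34.0% of these in label 1 (7488 genes), 48.2% in label 7 (8855 genes), 52.3% in label 8 (10892 genes) and 49.2% in label 9 (9652 genes). False calls made 4.35, 3.06, 7.14 and 5.77% of its calls in these labels, above 5% in labels 8 and 9.

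Gene positions come from GENCODE M21 on GRCm38 and promoter windows from RefSeq. Named were the 10 members, list genes that passed a test or led their list in a pigment cell label, and the 3 genes nearest each member. Members and lists were chosen with earlier results of these data known. Alternatives were DESeq2 1.42.0, its size factors in edgeR, no filter on low counts, cells of at least 2000 UMIs, male-typed cells, a joint fit of the 4 labels, pooled levels, other thinning, leaving out 1 control, all kept cells without label 1 and, added after seeing the data, Xist-positive Angpt1ΔNC cells.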

Additional observations from a re-analysis of the deposited data

Results flagged for a closer look

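The genotype difference of Pmel was not the same in the labels, by edgeR's test of the difference itself. The log2 difference of Angpt1ΔNC against control was -0.85 in label 7, -0.09 in label 8 and 0.01 in label 9. The value in label 8 minus that in label 7 was 0.72 ± 0.13 in the joint model (adjusted p = 0.011), and the value in label 9 minus that in label 7 was 0.83 ± 0.13 (adjusted p = 0.0052), with 1 Angpt1ΔNC library.

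Called cells outside the filters, which no comparison by label uses, held member UMIs in every library. Their share was 4.30% and 6.53% in the controls and 25.6% in Angpt1ΔNC. The cells numbered 1247, 1276 and 1360. Pmel stood at 1773, 3486 and 6249 CPM (UMIs per 1000000) in them. The number of pigment cells and the Pmel level per cell cannot be told apart in these values.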

How the results depend on the processing

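The higher level in labels 8 and 9 than in labels 7 and 1, for all members but Mitf, was the firmest result, and the genotype calls the least firm. The order of labels 7 and 1 moved with the setting. The members with a higher share of cells in label 7 than in label 1 numbered 4 with thinning to 2000 UMIs, 3 with thinning to 1000 and 1 with none. With each cell weighing the same, labels 1, 7, 8 and 9 held 98.82, 98.49 and 98.30% of the member UMIs. Members past the threshold numbered 0 in label 1, 1 in label 8 and 1 in label 9 by DESeq2 (2 in each by edgeR), and 1 over all kept cells. Without a filter on low counts they numbered 1 in label 7 and 4 in label 8, with cells of at least 2000 UMIs 1 in label 7, with male-typed cells 1 in label 8 and 0 in label 9, and in a joint fit of the 4 labels 2 in label 7, 0 in label 8 and 1 in label 9. The male-typed fit of label 1 could not be run, since it held 0 male-typed Angpt1ΔNC cells. Adjusted p of Mitf became 0.10 in label 8 and 0.21 in label 9 by DESeq2 and 0.054 in label 8 by the joint fit, that of Slc45a2 in label 8 0.12 by the joint fit, that of Dct in label 9 0.072, and that of Tyr and Dct in label 1 0.38 and 0.08 by DESeq2. Pmel in label 7 passed without the filter (0.002), with cells of at least 2000 UMIs (0.031) and in the joint fit (0.017). Signs turned only in differences that passed no test: Slc24a5 in label 1 became -0.04 by DESeq2, -0.06 without the filter and -0.07 in the joint fit, Mlana in label 7 0.00 by DESeq2 and 0.05 with Xist-positive cells, Tyr in label 8 0.00 with male-typed cells, Oca2 in label 8 0.00 without the filter, -0.09 with Xist-positive cells and -0.01 in the joint fit, Pmel in label 9 -0.01, -0.06 with male-typed cells and -0.05 in the joint fit, and Oca2 in label 9 0.47 with male-typed cells. The cause of these moves was not tested.

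Leaving out 1 control in turn leaves a difference of a pair of libraries with no test. The difference of Mitf then ran from -0.73 to -0.52 in label 8 and from -1.02 to -0.76 in label 9, that of Slc45a2 in label 8 from -0.53 to -0.51, that of Pmel in label 7 from -0.93 to -0.79, that of Tyr in label 1 from 0.96 to 1.15 and that of Dct in label 8 from 0.39 to 0.76. Counts over all genes moved by over 1.5 times: by DESeq2 from 904 to 156 in label 1, from 999 to 307 in label 8, from 1275 to 195 in label 9 and from 1 to 1003 over all kept cells, without the filter from 77 to 626 in label 7 and from 999 to 1708 in label 8, with cells of at least 2000 UMIs from 77 to 265 in label 7, with male-typed cells from 77 to 21 in label 7 and from 1275 to 110 in label 9, with Xist-positive cells from 77 to 173 in label 7, in the joint fit from 77 to 436, from 999 to 566 and from 1275 to 518 in labels 7, 8 and 9, and without label 1 from 1 to 377 over all kept cells. No paired analysis was possible, since the sources used here name no pairs of control and Angpt1ΔNC libraries and there was 1 Angpt1ΔNC library.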
